A study of Drosophila melanogaster with 4 samples.

Results

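The genes described here make and use small RNAs in *Drosophila melanogaster*. They are 10 genes of the miRNA and siRNA pathways, *drosha* (CG8730), *pasha* (CG1800), *Dcr-1* (CG4792), *loqs* (CG6866), *AGO1* (CG6671), *gw* (CG31992), *Dcr-2* (CG6493), *r2d2* (CG7138), *AGO2* (CG7439) and *Hen1* (CG12367), chosen by name and by the CG number that the array files give each probe. They were covered by 17 of the 32162 distinct probes that were not controls, and all 17 passed the filter on dim signals, so that 10 of the 14871 genes and unnamed transcripts tested belong here. Whole embryos homozygous for ectopic expression of the microRNA mir-3 were compared with wild-type embryos on 4 Agilent arrays with 2 colours. Both genotypes had the w1118 genetic background, were aged to between 6 and 8 h after egg laying at 25 °C, and gave 3 biological replicates each. The sources used here do not name the promoter or driver behind the ectopic expression. Each array carried mir-3 ectopic RNA in one dye and wild-type RNA in the other: mir-3 ectopic RNA was in Cy3 for replicates 1, 2 and 3, and a further array repeated replicate 1 with the dyes exchanged.

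In the fly, the nuclear enzyme Drosha and its RNA-binding partner Pasha cut hairpins out of primary miRNA transcripts. Dicer-1 with its partner Loquacious trims them to the mature length, and AGO1 carries the mature strand to target mRNAs and silences them through Gawky, the fly member of the GW protein family. The siRNA branch runs beside it: Dicer-2 processes long double-stranded RNA and, with R2D2, loads the product into AGO2. Hen1 methylates the end of the loaded strand. Hen1 also methylates piRNAs, and isoforms of Loquacious serve either Dicer, so neither gene belongs to its branch alone. A microRNA such as mir-3 is itself made and used by the miRNA branch.

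Every value below is a log2 ratio of mir-3 ectopic over wild type unless it is called a signal, and its direction rests on the labelled dyes. The authors' deposited value table has the opposite sign. Replicate 1 entered as the mean of its 2 arrays, and the 3 replicate ratios were set against 0 in limma's moderated test, with Benjamini-Hochberg adjustment over all 14871 genes. Between 57.6% and 66.1% of probe spots were well above background in a channel, and 0 spots were saturated. Of the 8 embryo tissue markers, *Mef2*, *twi*, *tin*, *elav*, *srp*, *en*, *wg* and *trh*, all 8 were well above background in both channels on 4 of 4 arrays. The level of mir-3 itself was not analysed here. RNA came from whole embryos, in which fewer cells that express a gene and less RNA per cell cannot be told apart.

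Of the 10 genes, 5 rose in mir-3 ectopic embryos, 0 fell and 5 did not pass an adjusted p of 0.05 in limma. At an unadjusted p of 0.05, 7 were higher and 0 lower, where 55.8% of all genes passed, 27.7% as higher and 28.2% as lower. The 5 were *Hen1*, *pasha*, *gw*, *AGO1* and *drosha*, so that 4 of the 6 miRNA branch genes and 1 of the 4 siRNA branch genes rose. At the adjusted threshold 48.7% of all genes tested passed, 24.3% as higher and 24.4% as lower, and the 5 of 10 calls in either direction are close to that background. The median of the 10 ratios was 0.20, against a median of -0.0018 over all genes, and the median absolute ratio was 0.20 against 0.14. With the dye-swap array left out, 7 of the 10 were called higher and 1 lower (*r2d2*). Of all 14871 genes that setting called 58.6%, 4450 as higher and 4267 as lower. A fit of the 4 arrays that included a dye term called 7 higher and 1 lower (*Dcr-1*). Of 14866 genes that fit called 54.3%, 3990 as higher and 4082 as lower. Under both settings *Dcr-2* and *loqs* joined the 5.

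**Figure D1:**
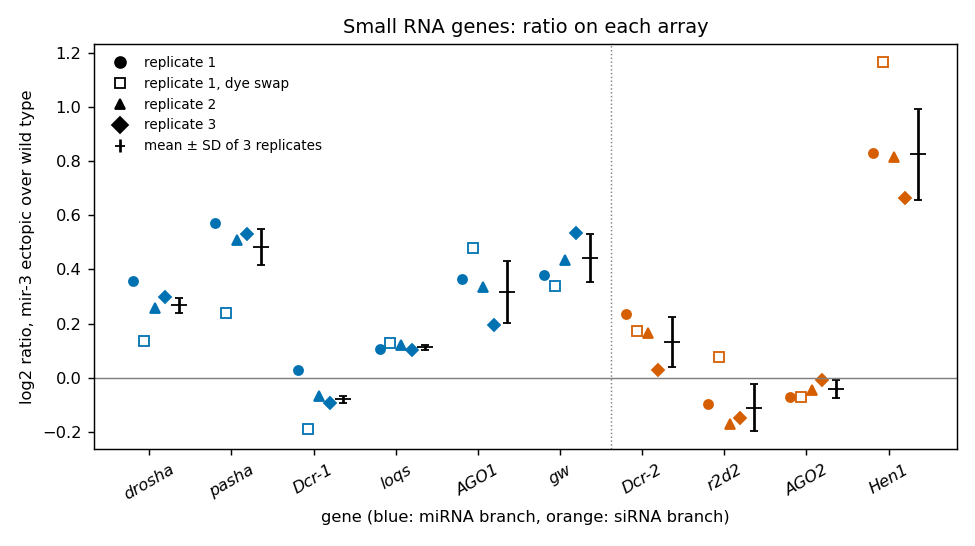
Log2 ratio of mir-3 ectopic over wild type (vertical axis) for the 10 genes on each of the 4 arrays, with the mean ± SD of the 3 replicates in black, miRNA branch in blue and siRNA branch in orange. *Hen1* lies highest, between 0.66 and 1.16, and *AGO2*, *r2d2* and *Dcr-1* lie around 0.

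Both genes of the nuclear cropping step rose. *pasha* had ratios of 0.57 and 0.24 on the first and the swapped array of replicate 1, of 0.51 in replicate 2 and of 0.53 in replicate 3. It was higher on 4 of 4 arrays, the dye swap being the lowest, with a mean of 0.48 ± 0.07 (SD, n = 3), or 1.40-fold (limma adjusted p 0.0002). Log2 signals of its probe were 11.82, 11.63, 11.68 and 11.73 in mir-3 ectopic RNA (replicate 1, dye swap, replicates 2 and 3). In wild type they were 11.25, 11.39, 11.17 and 11.20. Of all genes tested, 8.76% had a larger absolute ratio than *pasha*. *drosha*, which encodes the nuclease itself, had ratios of 0.36, 0.13, 0.26 and 0.30 on the same arrays. It was higher on 4 of 4, with a mean of 0.27 ± 0.03 (SD, n = 3), or 1.20-fold (limma adjusted p 0.0019), and 25.7% of genes had a larger absolute ratio. Its signals ran from 11.43 to 11.47 in mir-3 ectopic RNA and from 11.08 to 11.33 in wild type. From the Feature Extraction processed signals, which gave calls for 27.1% of all genes, *drosha* missed the threshold at 0.17 (limma adjusted p 0.45), while *pasha* passed at 0.46.

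The dicing step gave no call. *Dcr-1*, the miRNA-producing Dicer, had ratios of 0.03, -0.19, -0.07 and -0.09 on the array of replicate 1, its dye swap and replicates 2 and 3. Its mean was -0.08 ± 0.01 (SD, n = 3), with a 95% interval from -0.18 to 0.02 (limma adjusted p 0.15). The SD is small because the arrays of replicate 1, at 0.03 and -0.19, were averaged first. With a dye term in the fit it passed as lower at -0.12 (limma adjusted p 0.040). *loqs*, whose product binds Dicer-1, was even across the arrays at 0.11, 0.13, 0.12 and 0.10. Its mean of 0.11 ± 0.01 (SD, n = 3) missed the threshold (limma adjusted p 0.056), with an interval from 0.02 to 0.21. That mean covers a pair of probes that differed, as given below, and for the brighter one alone *loqs* was called higher at 0.27 (limma adjusted p 0.0033).

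At the effector step both genes rose. *gw*, which links AGO1 to deadenylation and translational repression, had ratios of 0.38, 0.34, 0.44 and 0.54 on the array of replicate 1, its dye swap and replicates 2 and 3. It was higher on 4 of 4 arrays at 0.44 ± 0.09 (SD, n = 3), or 1.36-fold (limma adjusted p 0.00041), and 10.5% of genes had a larger absolute ratio. Signals of the brighter *gw* probe were 15.15, 15.10, 14.91 and 14.80 in mir-3 ectopic RNA and 14.78, 14.76, 14.42 and 14.25 in wild type. The lowest mir-3 ectopic value stood just above the highest wild-type one, since signals on both arrays of replicate 1 were higher in either genotype. The call was lost when the channels were not paired by array (limma adjusted p 0.092 at the same ratio). *AGO1*, the miRNA Argonaute, had ratios of 0.36, 0.48, 0.33 and 0.19. All 4 arrays showed it higher, the lowest being that of replicate 3, and the mean was 0.32 ± 0.11 (SD, n = 3), or 1.24-fold (limma adjusted p 0.0028). The *AGO1* call rested on its dimmer probe: for the brighter one alone it did not pass at 0.17 (limma adjusted p 0.058), and from the processed signals it missed the threshold at 0.28 (limma adjusted p 0.16).

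**Figure D2:**
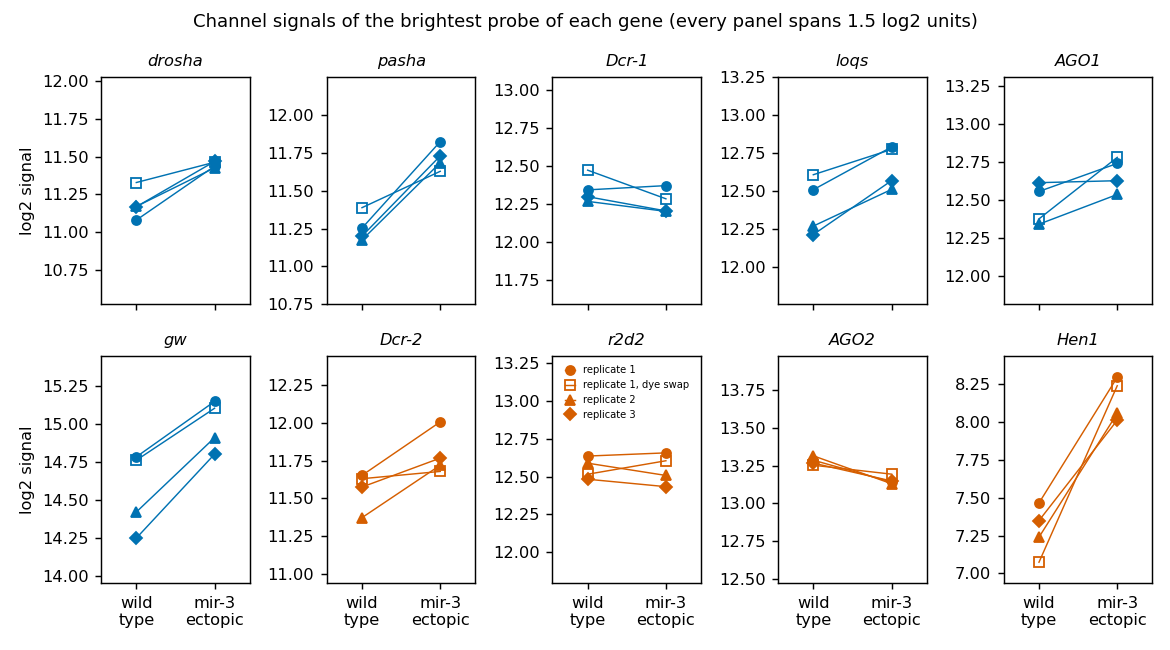
Log2 signal (vertical axis, 1.5 units in every panel) of the brightest probe of each gene in wild-type and mir-3 ectopic RNA, with a line for each of the 4 arrays, miRNA branch in blue and siRNA branch in orange. All 4 lines rise for *pasha*, *drosha*, *gw*, *Hen1*, *AGO1*, *loqs* and *Dcr-2*, and all 4 fall for *AGO2*. They run in both directions for *r2d2* and *Dcr-1*.

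In the siRNA branch the genes of dicing, loading and silencing did not pass. *Dcr-2*, which cuts double-stranded RNA, had ratios of 0.24, 0.17, 0.16 and 0.03 on the array of replicate 1, its dye swap and replicates 2 and 3. The sign was the same on 4 of 4 arrays, and the mean of 0.13 ± 0.09 (SD, n = 3) missed the threshold (limma adjusted p 0.062), with an interval from 0.02 to 0.25. *r2d2*, the loading partner of Dicer-2, had ratios of -0.10, 0.08, -0.17 and -0.15, the dye swap alone being above 0. Its mean was -0.11 ± 0.09 (SD, n = 3), with an interval from -0.23 to 0.0045 (limma adjusted p 0.10). Without replicate 1, which holds the dye swap, *r2d2* passed as lower at -0.16 (limma adjusted p 0.018), and with the dye-swap array alone left out it passed at -0.14 (limma adjusted p 0.013). *AGO2*, the siRNA Argonaute, had ratios of -0.07, -0.07, -0.05 and -0.01. Its mean of -0.04 ± 0.03 (SD, n = 3) was the smallest of the 10 in absolute size (limma adjusted p 0.44). The interval, from -0.14 to 0.06, leaves room for a change of up to that size in either direction.

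*Hen1*, the small RNA methyltransferase, stood apart from the other genes of its branch. The first array of replicate 1 gave 0.83, the swapped one 1.16, replicate 2 gave 0.82 and replicate 3 gave 0.66. It was higher on 4 of 4 arrays at 0.83 ± 0.17 (SD, n = 3), or 1.77-fold (limma adjusted p 9.3e-05), and 2.54% of all genes had a larger absolute ratio. Log2 signals of its single probe were 8.29, 8.24, 8.06 and 8.01 in mir-3 ectopic RNA and 7.46, 7.07, 7.24 and 7.35 in wild type. The probe was dim: raw mir-3 ectopic signals were 221, 366, 154 and 166.5 over local backgrounds of 24, 56, 22 and 22.5, and raw wild-type signals 188, 91, 179 and 129.5 over 53.5, 27, 53 and 44. It was still well above background in both channels on 4 of 4 arrays. The size of its ratio moved with the processing, being 0.99 with no background subtraction and 1.40 from the processed signals, which differ in both background correction and normalization, while the direction was the same under all 17 alternatives run.

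Probes of 1 gene did not always give the same ratio, although the files name them for the same transcript. *AGO1* was read by a probe on 1 spot (A_09_P050286), with ratios of 0.54, 0.55, 0.47 and 0.37 (replicate 1, dye swap, replicates 2 and 3), and by a brighter one on 2 spots (A_09_P078781), with ratios of 0.18, 0.41, 0.20 and 0.01. The first was the higher on 4 of 4 arrays, by 0.30 ± 0.06 (SD, n = 3) after averaging replicate 1. The *loqs* probes differed by 0.32 ± 0.16 (SD, n = 3): the brighter (A_09_P022616) was at 0.27 ± 0.07 and the other (A_09_P048101) at -0.05 ± 0.09. That second *loqs* probe was near background, with raw signals of 38 to 98 in mir-3 ectopic RNA over backgrounds of 18 to 53.5, and was well above background on 3 of 4 arrays in each channel.

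The *Dcr-2* probes were at 0.25 ± 0.09 (A_09_P103340) and 0.02 ± 0.17 (A_09_P008766, SD, n = 3), but their order was not the same on every array. The first was the higher by 0.24 to 0.36 on the 3 arrays with mir-3 ectopic RNA in Cy3 and the lower by 0.25 on the dye swap. The *r2d2* probes were at -0.03 ± 0.07 (A_09_P020501) and -0.20 ± 0.10 (A_09_P138065, SD, n = 3), the first being higher on 4 of 4 arrays. *AGO2* probes were at 0.01 ± 0.11, -0.00 ± 0.03 and -0.13 ± 0.04 (SD, n = 3) in the order A_09_P057186, A_09_P222045 and A_09_P218455. The second of these was near background, with raw mir-3 ectopic signals of 57 to 128 over backgrounds of 18 to 54. Its SD is small because the arrays of replicate 1, at -0.14 and 0.15 (dye swap), were averaged first. The third was the brightest. The *gw* probes were at 0.47 ± 0.10 and 0.42 ± 0.08 (SD, n = 3). In a limma fit over the 19748 kept probes, 10 of the 17 passed, against 48.0% of all kept probes. Of these, 8 were higher and 2 lower (*AGO2* A_09_P218455, adjusted p 0.048, and *r2d2* A_09_P138065, 0.022). Of all kept probes 24.8% passed as higher and 23.2% as lower.

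**Figure D3:**
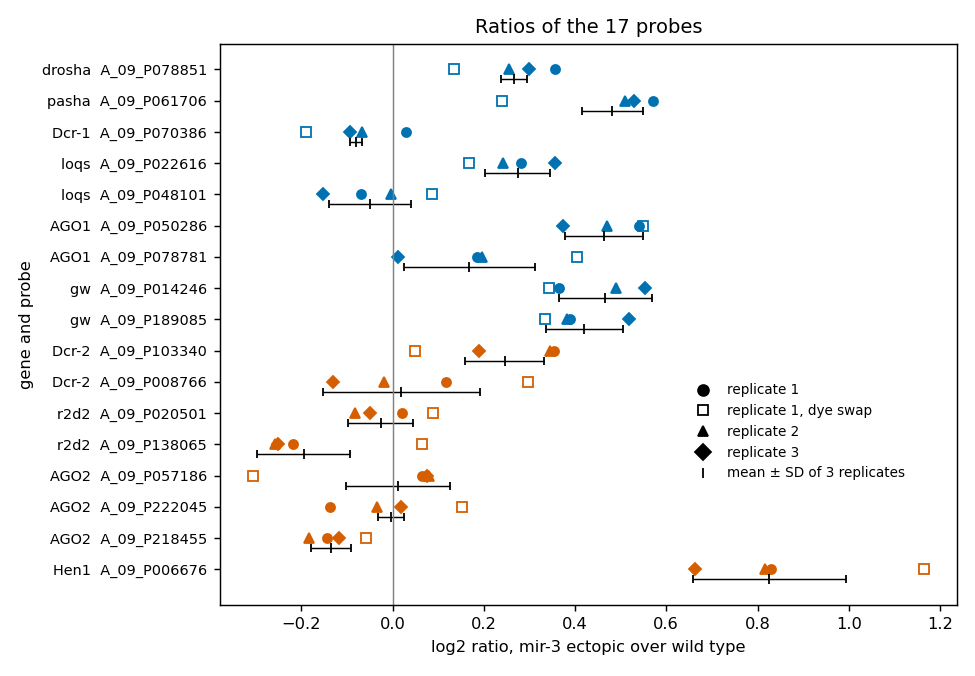
Log2 ratio of mir-3 ectopic over wild type (horizontal axis) for each of the 17 probes on the 4 arrays, with the mean ± SD of the 3 replicates in black below the points and the branches in the same blue and orange. The pairs of *AGO1*, *loqs* and *Dcr-2* probes are apart, those of *gw* lie together, and the dye-swap points of the *AGO2* probe A_09_P057186 and the *r2d2* probe A_09_P138065 stand away from the other arrays.

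Repeated spots give the measuring error within an array. Of the genes, 6 had a probe printed on 2 spots, and the absolute gap between their ratios on an array was 0.0081 to 0.086 for *loqs*, 0.087 to 0.16 for *AGO2*, 0.10 to 0.26 for *Dcr-1* and 0.029 to 0.25 for *r2d2*. Gaps were wider for *pasha*, at 0.13, 0.12, 0.36 and 0.46 on replicate 1, its dye swap and replicates 2 and 3, and for *AGO1* in replicate 2, at 0.44. Over all 6868 kept probes on 2 spots the median gap on an array was 0.087 and the 90th percentile 0.27, which the widest gaps of *pasha* and *AGO1* exceeded and those of the other 4 did not. Both *pasha* spots were above 0 on 4 of 4 arrays, the lower being at 0.18 to 0.50, while the *AGO1* spots of replicate 2 were at 0.42 and -0.02.

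The branches were then compared by the mean ratio of their genes, as a description with no test. The 6 miRNA branch genes averaged 0.26 ± 0.01 and the 4 siRNA branch genes 0.20 ± 0.07 (SD, n = 3). The miRNA branch SD is small because the arrays of replicate 1, at 0.30 and 0.19 (dye swap), were averaged first. Replicates 2 and 3 were at 0.26 and 0.26, and the SD over the 4 arrays was 0.05. The difference, siRNA minus miRNA, was -0.08 and 0.15 on the first and the swapped array of replicate 1, -0.07 in replicate 2 and -0.13 in replicate 3, a mean of -0.06 ± 0.08 (SD, n = 3). It was smaller than the spread between replicates, and the branches were not separated by it. *Hen1* alone set the siRNA mean: without it the other 3 genes averaged -0.01 ± 0.04 and the difference was -0.26 ± 0.05 (SD, n = 3), with the miRNA branch higher on 4 of 4 arrays, from -0.13 on the dye swap to -0.30 in replicate 3. Taking the median over genes within each replicate, and then the mean over replicates, gave 0.27 for the miRNA and 0.06 for the siRNA branch, a difference of -0.21 ± 0.04 (SD, n = 3). With the processed signals, which raise the *Hen1* ratio, the difference turned to 0.12 ± 0.06, and with a dye term in the fit it was 0.03. *Hen1* was left out with its ratio known, and the counts of 4 of 6 and 1 of 4 genes called higher were not tested against each other.

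**Figure D4:**
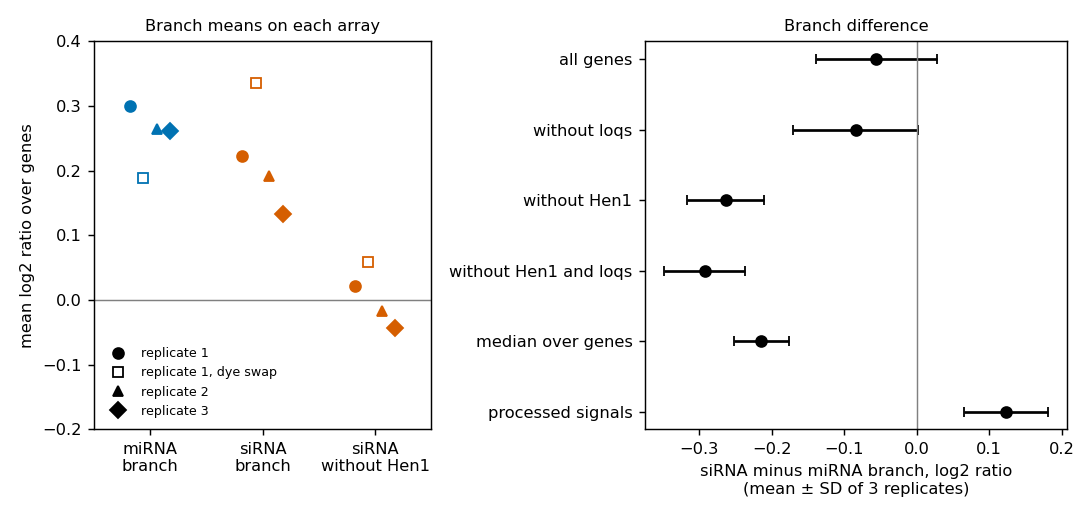
Left, mean log2 ratio over the genes of the miRNA branch, the siRNA branch and the siRNA branch without *Hen1* on each array. Right, the difference siRNA minus miRNA as mean ± SD of the 3 replicates: it lies at -0.06 with all genes, at -0.26 without *Hen1* and at 0.12 with the processed signals.

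Cofactors of the same pathways went in both directions. Of 32 other pathway genes on 4 lists, 8 rose, 12 fell and 12 did not pass, against 24.3% higher and 24.4% lower over all genes. The 16 genes listed here as cofactors of the miRNA branch and AGO1 had a median of -0.01, with 4 higher, 4 lower and 8 not called. *Cbp80*, the large subunit of the nuclear cap-binding complex, rose by 0.49 ± 0.08 (limma adjusted p 0.00024), *Tailor*, a uridylyltransferase that marks RNA ends, by 0.40 ± 0.04 (0.00033), and *Ars2*, which joins the cap-binding complex to miRNA processing, by 0.24 ± 0.05 (0.0040; SD, n = 3). *me31B*, a DEAD-box repressor of mRNAs, was lower at -0.45 ± 0.08 (limma adjusted p 0.00032), and so was the helicase gene *Rm62* at -0.23 ± 0.04 (0.0039; SD, n = 3). *Nbr*, a nuclease that trims AGO1-bound miRNAs, was called lower at -0.45 ± 0.26 (SD, n = 3, limma adjusted p 0.0051), but was at 0.05 on the dye-swap array against -0.37, -0.63 and -0.58 on the others.

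The 8 genes listed here as siRNA and AGO2 cofactors had a median of -0.22, with 5 lower, 1 higher and 2 not called. Over all genes 24.4% were called lower and 24.3% higher. Those that fell included *blanks*, a double-stranded RNA-binding protein of the male germline (-0.38 ± 0.07, limma adjusted p 0.00066), *vig2* (-0.28 ± 0.04, 0.0018), the helicase gene *armi* (-0.32 ± 0.12, 0.0028), and *trsn*, a subunit of the nuclease that removes the passenger strand (-0.20 ± 0.03, 0.0071; SD, n = 3). *vig* rose narrowly at 0.15 ± 0.10 (SD, n = 3, limma adjusted p 0.048), being at -0.14 on the dye swap. The call was lost with a dye term in the fit, at 0.04 (limma adjusted p 0.47). Loading of Argonautes needs the heat shock chaperone machinery, and its 5 genes had a median of -0.17. Here limma called 3 genes lower and 0 higher, where 24.4% and 24.3% of all genes were. At an unadjusted p of 0.05 the counts were 3 and 0 too, where 28.2% and 27.7% of all genes passed. *Hsp83* was at -0.33 ± 0.02 (limma adjusted p 0.00068), its co-chaperone *p23* at -0.38 ± 0.08 (0.00069) and *Stip1* at -0.17 ± 0.14 (0.043; SD, n = 3). The processed signals called 27.1% of all genes, 2120 higher and 1903 lower. With them 7 of the 32 genes were called, 4 higher and 3 lower. These included 1 of the 8 siRNA and AGO2 cofactors, as lower, and 0 of the 5 chaperone genes, of which 1 was lower at an unadjusted p of 0.05 in limma. The dye-term fit and the brightest probe of each gene both called 5 of the 5 chaperone genes lower. Over all genes these settings called 4082 of 14866 and 3688 of 14871 lower.

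Of the 3 Argonautes of the PIWI clade, which bind piRNAs, 3 were called higher, where 24.3% of all genes were. *AGO3* was at 0.73, 0.65, 0.75 and 0.59 on the array of replicate 1, its dye swap and replicates 2 and 3, a mean of 0.68 ± 0.08 (SD, n = 3, limma adjusted p 5.5e-05), and 4.07% of genes had a larger absolute ratio. *aub* was at 0.26 ± 0.01 (limma adjusted p 0.0019) and *piwi* at 0.23 ± 0.08 (0.0071; SD, n = 3), each higher on 4 of 4 arrays. From the processed signals 2 of the 3 passed as higher, as did 2120 of 14871 genes. With median centring in place of loess 0 of the 3 passed, where 24 of 14871 genes passed as higher and 58 as lower. Germ cell markers moved in both directions beside *Hen1* and these genes. Of 7, *pgc* (-1.76 ± 0.13), *nanos* (-1.44 ± 0.14), *osk* (-1.21 ± 0.11) and *gcl* (-0.21 ± 0.07) fell, *zpg* rose (1.68 ± 0.07; SD, n = 3), and *vas* (-0.06) and *ovo* (-0.05) did not pass (limma adjusted p 1.4e-06, 4.9e-06, 5.5e-06, 0.0086, 7.8e-07, 0.28 and 0.42 in this order). Over all genes 24.4% were called lower and 24.3% higher. With a dye term in the fit *vas* (-0.10, limma adjusted p 0.037) and *ovo* (-0.12, 0.033) passed as lower too, which made 6 of the 7 lower. Over all genes that fit called 4082 of 14866 lower. The part of these markers in the ratios of *Hen1*, *AGO3*, *aub* and *piwi* was not tested. Of the 8 embryo tissue markers, 1 rose (*Mef2*, 0.16), 3 fell (*tin*, -0.73, *en*, -0.25, and *srp*, -0.20) and 4 did not pass. In that fit, without a dye term, 24.3% of all genes rose and 24.4% fell.

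**Figure D5:**
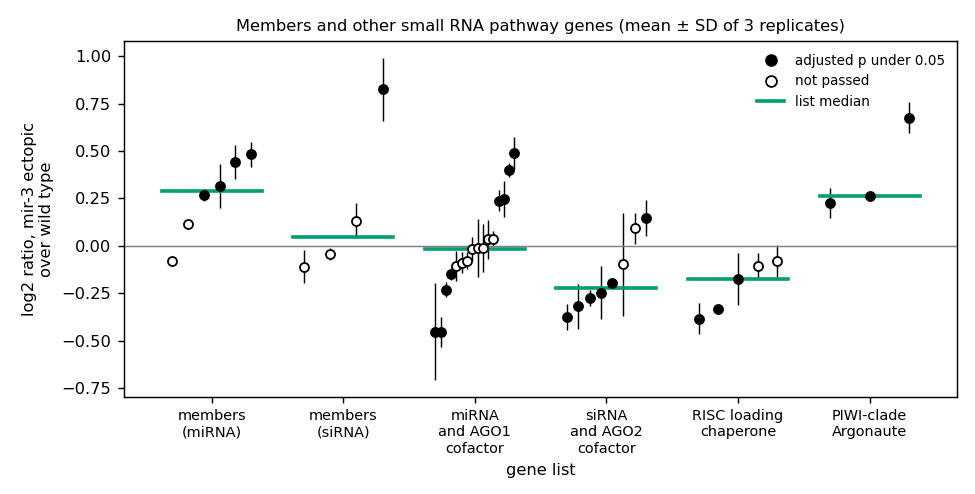
Log2 ratio of mir-3 ectopic over wild type (vertical axis, mean ± SD of 3 replicates) for the 10 genes by branch and for 4 lists of other pathway genes, filled where the limma adjusted p was under 0.05, with the median of the gene means of each list in green. Medians run from -0.22 for the siRNA and AGO2 cofactors to 0.29 for the miRNA branch, with the 3 PIWI-clade genes all above 0.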

How the data were processed

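Spots were quantified with Agilent Feature Extraction 10.1.1.1, per the file headers. The deposited scanner files hold spot intensity (median foreground and local background), processed signals and log10 ratios of Cy5 over Cy3, the last not used here. The authors' value table holds log2 ratios that equal wild type over mir-3 ectopic by the labelled dyes, from processed signals, uncentred (column medians -0.11, -0.07, 0.11 and -0.15). Median intensities were corrected with normexp (offset 50) and normalized by loess within each array, control spots at weight 0, in limma 3.58.1 (R 4.3.3, statmod 1.5.0). Outlier spots (107 to 173 per array) were left out and spots of a probe averaged. Probes well above background in the channel of 1 genotype on at least 3 of 4 arrays were kept (19748 of 32162), and a gene's kept probes averaged. Log2 signals per channel were also scaled between arrays (Aquantile).

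Identifiers were named through a RefSeq table (Release 6); the files use an older build, so no coordinates are given. Replicate 1 lay on one slide and replicates 2 and 3 on another; the labels call the replicates independently isolated. Genes named from each list are those that passed, at most the 6 with the smallest adjusted p. One list gene that passed is not reported here by name. The members and lists were chosen with earlier results of these data known. The number of arrays limits the precision.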

Additional observations from a re-analysis of the deposited data

Results flagged for a closer look

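Ratios were examined for an array far from the other 3 in 56 sets of 4 arrays, which covered the 10 genes, their 17 probes and the list genes that passed. An array was singled out when its gap to the nearest other, divided by the whole range, exceeded Dixon's critical value for 4 values. For independent values chance singles out about 1 in 20 sets. That rate does not describe these sets: 2 arrays hold the same RNA pair, and genes with 1 probe enter both as gene and as probe. An array was singled out in 4 sets, and in all 4 it was the dye swap of replicate 1. The *AGO2* probe A_09_P057186 was at -0.31 on the dye swap against 0.06, 0.08 and 0.08 on replicates 1, 2 and 3. The *r2d2* probe A_09_P138065 was at 0.064 against -0.22, -0.26 and -0.25. *Cbp80* was at 0.23 on the dye swap against 0.56, 0.54 and 0.54, and *Ars2* at 0.087 against 0.27, 0.26 and 0.28. The dye swap holds the same RNA pair as the array of replicate 1, with the dyes exchanged.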

How the results depend on the processing

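Across 17 alternatives no gene of the 10 changed sign past the threshold; *Hen1* and *pasha* lost their call only with median centring in place of loess (0.80 and 0.46), which called 0 of the 10 genes, 0 of the 17 probes, 0 of the 32 other pathway genes and 82 of all genes, against 7241. At an unadjusted p under 0.05 that limma fit held 1 of the 10 genes, 1 of the 32 and 1052 of all. Arrays lay further apart with median centring. On replicate 1, its dye swap and replicates 2 and 3 the miRNA branch mean was 0.93, 0.57, -0.23 and 0.22. The siRNA branch mean was 0.77, 0.65, -0.24 and 0.10. The SDs over 3 replicates were 0.49 and 0.48, against 0.01 and 0.07 after loess. Signs given above as shared by 4 of 4 arrays are those after loess. Processed signals and the authors' deposited value table called 3 and 3 of the 10 genes, 5 and 5 probes, 7 and 7 other pathway genes and 4023 and 4073 of all genes, with branch differences of 0.12 and 0.12. The dye term called 8 of the 10, as did the common-dye array alone for replicate 1. Taking the brightest probe lost *AGO1* and added *loqs*, *Dcr-2* (0.25) and, as lower, *AGO2* (-0.13, limma adjusted p 0.046). The dye-swap array alone for replicate 1 called 13 other pathway genes and 4315 of all genes, and channels not paired by array (no replicate block) 13 and 4443. Leaving out a replicate called 5 to 6 of the 10 genes, 7 to 10 probes, 15 to 22 other pathway genes and 4742 (without replicate 3) to 8254 of all genes, with branch differences of -0.10 to -0.02. The branch difference was -0.26 without *Hen1*, -0.29 without *Hen1* and *loqs* and -0.21 with medians. The cause of these shifts was not tested. The slide as a random block had a correlation of -0.047. Near background, as for *Hen1*, a *loqs* probe and an *AGO2* probe, signal limits the size of a ratio.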
